A study of Mus musculus with 8 samples.

Results

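MicroRNA precursor genes were described in bulk RNA sequencing of mouse femoral shaft bone. Members were chosen by their annotation and their summed counts, as the rows of the counts table whose Ensembl ID carries a precursor symbol (Mir followed by a digit, or Mirlet7) and the biotype miRNA in GENCODE M21 (GRCm38, the same build as mm10), with at least 40 counts summed over 8 libraries. This rule gave 51 of the 49315 rows. The table held 1174 precursor symbols in all, of which 418 had at least 1 count and 756 had none. The rule used the summed counts of all libraries and not the difference between genotypes. The members just inside the limit were Mir7027 with 40 counts and Mir697 and Mir1932 with 41 counts each, and those just outside were Mir7087 with 37 counts and Mir421 and Mir1247 with 34 counts each.

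The study compared 4 Girk3-/- mice (KO) with 4 wild-type mice (WT), all male, labelled C57BL6 and 24 weeks old. Girk3, encoded by Kcnj9, is a subunit of potassium channels opened by G proteins. The bone ends were cut off and the marrow was flushed out before total RNA was extracted. Each library was taken as 1 mouse, and it is not stated whether KO and WT mice were littermates.

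A microRNA gene is first transcribed as a long primary transcript or as an intron of a host gene. The nuclear enzyme Drosha with its partner Dgcr8 cuts out a hairpin, Xpo5 exports it, Dicer1 trims it to a short duplex, and 1 strand is loaded into an Argonaute protein. The loaded strand recognises messenger RNAs mainly through its seed, bases 2 to 8. Library preparation used the NEBNext Ultra II kit, a general RNA kit, so the counts were of reads over precursor intervals. They can come from primary transcripts, host introns or hairpins, and the level of mature microRNAs was not measured.

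The 51 precursors were 56 to 128 bases long, with a median of 79 bases. In the RefSeq (GRCm38.p6) sequences used here, 45 of them were matched by symbol, with 74 mature sequences. A missing match does not mean that RefSeq lacks the microRNA. Shown are the mature sequences of the matched precursors with the smallest p values, and of Mir142b, the member from the blood list. The counts of their precursors are compared below, and the sequences themselves entered no comparison between genotypes. Capitals mark the seed.
mmu-miR-6236: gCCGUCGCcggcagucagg
mmu-miR-703: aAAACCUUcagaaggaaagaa
mmu-miR-5125: uCUGCCUGggauuuccuugu
mmu-miR-3092-5p: aGGGGAAAaugccuuucuccca
mmu-miR-3092-3p: gAAUGGGGcuguuuccccucc
mmu-miR-186-5p: cAAAGAAUucuccuuuugggcu
mmu-miR-186-3p: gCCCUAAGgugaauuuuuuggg
mmu-miR-142b: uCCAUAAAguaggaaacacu

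These 8 mature sequences had 8 different seeds. Among all 74, the only seed shared by different mature sequences was that of the let-7 family, whose first member, in worms, is known for controlling developmental timing. Their shared seed GAGGUAG is in capitals below.
mmu-let-7b-5p: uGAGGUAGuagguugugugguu
mmu-let-7i-5p: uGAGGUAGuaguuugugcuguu

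The hairpins of 2 precursors that stand in introns are shown because Mir5125 and its host gene were both lower in KO, whereas Mir3092 was higher beside a host that was not. Capitals here mark the mature arms within the hairpin. Mir5125 lies at chr17:23823291-23823369 on the plus strand and Mir3092 at chr3:27584900-27584995 on the minus strand (GRCm38).
Mir5125: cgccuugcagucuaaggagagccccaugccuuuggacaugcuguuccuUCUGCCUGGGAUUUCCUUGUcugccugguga
Mir3092: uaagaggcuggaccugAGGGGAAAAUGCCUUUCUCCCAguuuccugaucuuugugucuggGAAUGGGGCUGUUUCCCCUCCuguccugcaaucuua

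Libraries held 30937465 to 32348592 counts in KO and 30087749 to 36553713 counts in WT. Kcnj9 had 0, 8, 4 and 7 counts in KO and 7, 6, 6 and 23 counts in WT, which overlapped, so its count did not separate the labelled genotypes. KO replicate 4 and WT replicate 4 lay at opposite ends of the first principal component, which held 33.5% of the variance. All 15 listed osteoblast and osteocyte markers were detected. Their summed level was 10230 to 18560 CPM in KO and 9239 to 22190 CPM in WT. CPM are the deposited counts scaled to library size multiplied by TMM normalization factors. Skeletal muscle markers, all 15 detected, summed to 114900 to 189400 CPM in KO, against 72660 to 133700 CPM in WT. The 15 neutrophil and myeloid markers, all detected, summed to 1001 to 8333 CPM in KO and 1881 to 6308 CPM in WT, and 15 listed erythroid markers, 14 of them in the table and none at 0, to 4879 to 9679 CPM in KO and 4187 to 12710 CPM in WT. The lowest myeloid and the highest muscle sum were both those of KO replicate 4.

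Precursor genes took a very small share of all reads. The 51 members together held 0.00577%, 0.00707%, 0.00530% and 0.00441% of the counts in KO replicates 1 to 4, and 0.00468%, 0.00510%, 0.00538% and 0.00649% in WT replicates 1 to 4. The ranges overlapped, with KO replicate 4 lowest and KO replicate 2 highest. Of the 51 members, 28 passed the low-count filter and were tested, and the other 23 had 40 to 74 counts over the 8 libraries.

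No precursor passed the test between genotypes. In edgeR (quasi-likelihood fit, Benjamini-Hochberg adjusted), 0 of the 28 tested precursors had an adjusted p under 0.05, where 0.0115% of the 17450 genes tested did. At an unadjusted p under 0.05, 3 precursors were higher in KO, where 9.59% of all tested genes were, and 3 were lower in KO, where 8.59% were. The 6 of 28 in either direction stand beside 18.2% of all tested genes. The log2 fold change of KO over WT was positive for 13 and negative for 15 precursors, with a median of -0.10, beside a median of -0.01 over all tested genes. Among the 28 tested precursors, the 4 KO and 4 WT levels did not overlap for Mir6236, Mir703 and Mir3092 on the higher side, where 7.34% of all tested genes did not overlap, nor for Mir486 and Mir5125 on the lower side, where 5.77% did not. Other tests of the same counts called a few of these. DESeq2 called Mir6236, Mir703 and Mir5125 of the 14 precursors it gave an adjusted p, at a background of 6.48%, and limma-voom with quality weights called these 3 and Mir486, at a background of 4.04%. Without a low-count filter, edgeR called Mir486, Mir6236 and Mir703, at a background of 0.228%. The same 3 were called without KO replicate 4 and WT replicate 4, at a background of 2.62%. In the edgeR fit of all 8 libraries, 4 precursors (Mir486, Mir6236, Mir703 and Mir5125) had an adjusted p under 0.10, where 2.83% of all tested genes did.

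**Figure D1:**
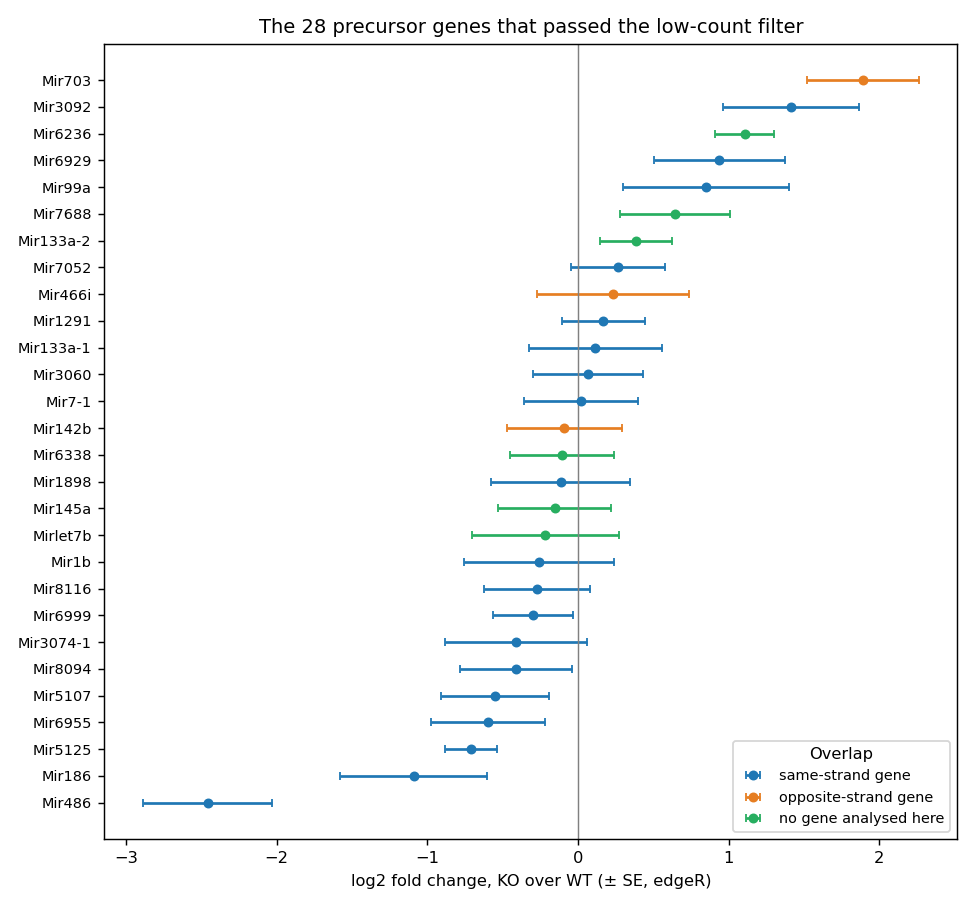
Log2 fold change of KO over WT with its standard error (edgeR, 4 libraries per group) for each of the 28 precursor genes that passed the low-count filter, coloured by whether an overlapping gene lies on the same strand, on the opposite strand, or is not analysed here. Mir703 stands highest at 1.89 and Mir486 lowest at -2.46, and the 13 positive and 15 negative values have a median of -0.10.

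Mir6236 had the highest count of all members, and its KO libraries were all above its WT libraries. It lies at chr9:110281287-110281409 on the plus strand (ENSMUSG00000098973, GRCm38), with no gene over it among those analysed here, and the nearest, Gm42775, 7543 bases away. No gene similar to Mir6236 was found among the transcripts of GENCODE M21. Matches outside them were not sought, and how reads with several matches were counted is not given. The source of its reads is therefore uncertain. Mir6236 counts were 353, 589, 505 and 341 in KO replicates 1 to 4 and 180, 287, 179 and 284 in WT replicates 1 to 4. The lowest KO level, 11.3 CPM in replicate 1, was above the highest WT level, 8.75 CPM in replicate 2. It averaged 14.4 ± 2.72 CPM in KO and 6.67 ± 1.49 CPM in WT (SD, n = 4 each), a log2 fold change of 1.11 (SE 0.20). This missed the threshold in edgeR (Benjamini-Hochberg adjusted p = 0.0714), and passed in DESeq2 (adjusted p = 8e-05) and in edgeR without KO replicate 4 and WT replicate 4 (1.15, adjusted p = 0.0387).

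Mir703 had the largest positive fold change, but its hairpin is nearly a copy of part of a messenger RNA. It lies on the minus strand at chr5:98475556-98475664 (ENSMUSG00000105814), in an intron of Cfap299 on the opposite strand. Cfap299 had 9 counts over all libraries, so it gave no usable ratio. The hairpin matched the transcript of Eef1a1, the abundant elongation factor that brings aminoacyl-tRNA to the ribosome, at 98.2% identity over its whole length, and 4 predicted genes named only by number (Gm26377, Gm26384, Gm24951 and Gm24276) at 92.8% to 98.2%. Since how reads that fit several places were counted is not given in the sources used here, its level is uncertain.

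Mir703 counts were 172, 216, 148 and 43 in KO replicates 1 to 4 and 39, 37, 33 and 64 in WT replicates 1 to 4. KO replicates 1 to 3 were far above every WT library, while KO replicate 4, at 1.63 CPM, was just above WT replicate 4, at 1.49 CPM. In raw counts these 2 libraries stood the other way, at 43 and 64. The groups separated only after scaling with the TMM factors, 0.831 for KO replicate 4 and 1.18 for WT replicate 4. The share of counts from mitochondrial genes was 7.36%, 5.84%, 7.09% and 11.6% in KO replicates 1 to 4 and 11.4%, 11.9%, 10.7% and 8.46% in WT replicates 1 to 4, so KO replicate 4 stood with the WT libraries there too, and its part in Mir703 was not tested. The level averaged 4.53 ± 2.06 CPM in KO and 1.22 ± 0.18 CPM in WT (SD, n = 4 each), a log2 fold change of 1.89 (SE 0.37; adjusted p = 0.0728 by Benjamini-Hochberg in edgeR). Without KO replicate 4 it was 2.18, with an adjusted p of 0.00855 in edgeR, and Mir703 was then the only precursor among the 0.0224% of genes called. Eef1a1 itself averaged 1491 ± 188 CPM in KO and 1381 ± 282 CPM in WT (SD, n = 4 each), a log2 fold change of 0.11 (SE 0.20; adjusted p = 0.818 in edgeR). Per 1000 Eef1a1 counts there were 3.31, 4.16, 3.01 and 1.33 Mir703 counts in KO, against 0.949, 0.850, 0.929 and 0.828 in WT. These ratios did not overlap, with a mean log2 difference of 1.62 for KO minus WT (two-sided exact permutation p = 0.0286, the smallest that 4 against 4 libraries can give). Mir703 was among the members with the smallest p in the same counts, and Eef1a1 was chosen after the values were seen. This ratio test therefore repeats that contrast and is not separate support.

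Mir486 had the largest negative fold change and the lowest KO counts of the 28 tested precursors. Its mature products are abundant in muscle and red blood cells, and it lies at chr8:23142555-23142682 on the plus strand (ENSMUSG00000070084), in an intron of Ank1, the gene of the ankyrin that anchors the red cell membrane skeleton. Its counts were 3, 9, 3 and 6 in KO replicates 1 to 4 and 48, 22, 25 and 38 in WT replicates 1 to 4. The highest KO count, 9, was well below the lowest WT count, 22. The KO counts alone would not have passed the low-count filter. Mir486 was therefore tested only through the WT libraries, where it was higher. The level averaged 0.171 ± 0.088 CPM in KO and 0.951 ± 0.318 CPM in WT (SD, n = 4 each), a log2 fold change of -2.46 (SE 0.43) that missed the threshold in edgeR (Benjamini-Hochberg adjusted p = 0.0714). It passed in limma-voom (adjusted p = 0.0278), in edgeR with no low-count filter (0.0381) and in edgeR without both replicates numbered 4 (-2.64, adjusted p = 0.0406), and DESeq2 gave it no adjusted p. A nested precursor on the opposite strand, Mir3107, had 0 counts in every library. It leaves 18 bases of Mir486 uncovered before it and 20 bases after it. Reads over both may have been counted for neither, so the counts of Mir486 may not cover its whole hairpin.

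Mir5125 had the second highest count of all members and was lower in every KO library. It lies in an intron of Srrm2, which encodes a scaffold protein of the spliceosome. Its counts were 199, 255, 187 and 227 in KO replicates 1 to 4, against 340, 327, 366 and 605 in WT replicates 1 to 4, and the groups did not overlap in counts or in CPM. It averaged 7.09 ± 1.22 CPM in KO and 11.6 ± 1.98 CPM in WT (SD, n = 4 each), a log2 fold change of -0.71 (SE 0.17; adjusted p = 0.0940 by Benjamini-Hochberg in edgeR). It was -0.71 also without both replicates numbered 4 (edgeR adjusted p = 0.0529).

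The remaining precursors with small p values rested on few counts. Mir3092, in an intron of Fndc3b, had 27, 16, 12 and 17 counts in KO and 9, 12, 4 and 5 counts in WT, and its CPM levels did not overlap. The log2 fold change came to 1.42 (SE 0.45; adjusted p = 0.151 in edgeR). Mir3092 passed the low-count filter through the KO libraries, where it was higher, and its WT counts alone would not have passed. Mir186, at chr3:157544279-157544349 in an intron of Zranb2, which encodes a zinc finger splicing factor, had 3, 10, 14 and 3 counts in KO and 11, 22, 15 and 24 counts in WT. KO replicate 3 overlapped the WT range, and the log2 fold change of -1.09 (SE 0.49) had an unadjusted edgeR p of 0.0476 and an adjusted p of 0.270. Mir6929, in an intron of Ptges3l, had 15, 37, 21 and 12 counts in KO and 15, 5, 9 and 21 counts in WT, which overlapped, with a log2 fold change of 0.94 (SE 0.43; adjusted p = 0.286 in edgeR). Mir7688, with no gene over it here, had 44, 21, 16 and 26 counts in KO and 19, 21, 18 and 19 counts in WT, and the value of 0.65 rested most on KO replicate 1, being 0.31 without it.

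**Figure D2:**
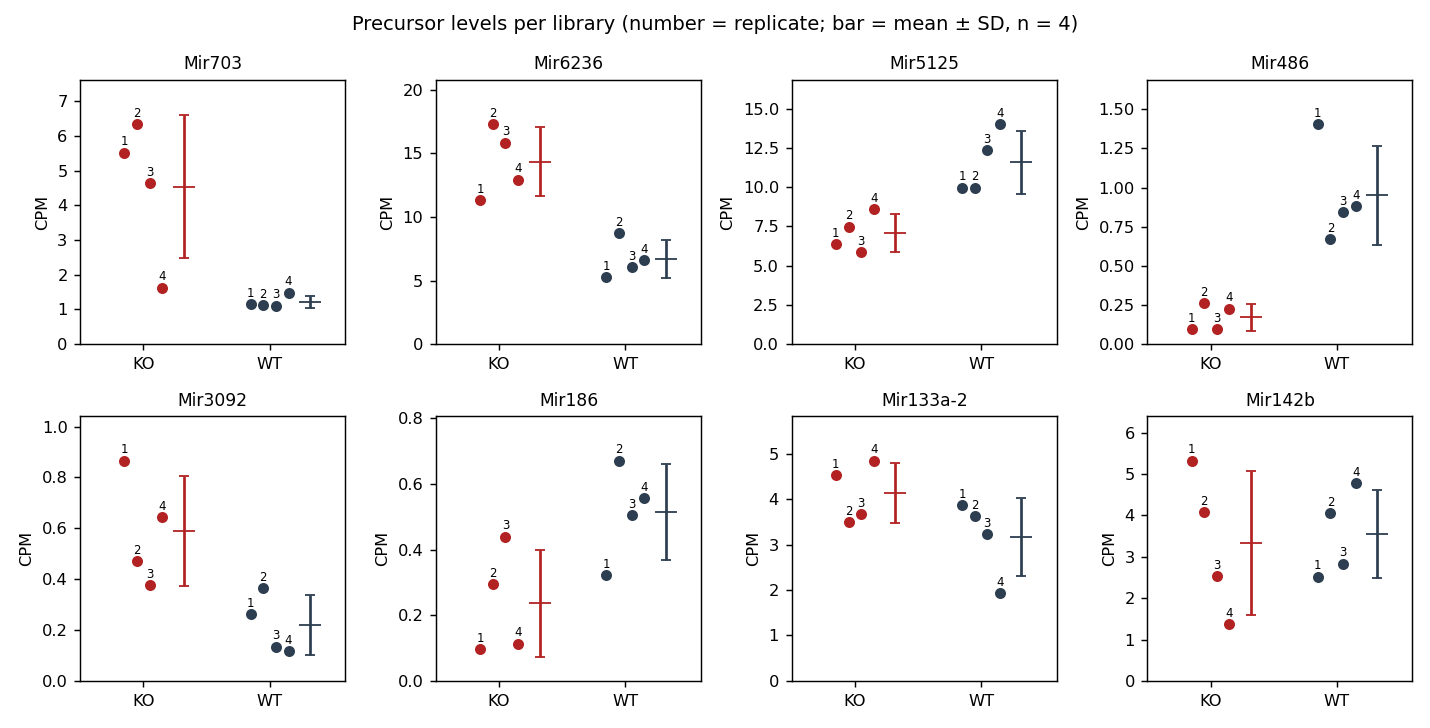
Level in CPM of 8 precursor genes in each of the 4 KO and 4 WT libraries, scaled with TMM factors. Points are numbered by replicate, with the mean and SD of each group beside them. Mir703, Mir6236 and Mir3092 lie higher in KO and Mir5125 and Mir486 lower with no overlap, KO replicate 4 comes close to the WT libraries for Mir703, and Mir186, Mir133a-2 and Mir142b overlap.

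Several of the better covered members showed no difference beyond the spread between mice. Mir8116, in an intron of Ache, the gene of acetylcholinesterase, had 104, 211, 85 and 80 counts in KO and 112, 115, 113 and 334 counts in WT. WT replicate 4 stood far above the other WT libraries, and the log2 fold change of -0.27 (SE 0.35) became 0.11 without it. Its hairpin matched the predicted precursor Gm27452 at 94.8% identity, so reads could be split between them, though Gm27452 was listed at 0. Mir7052, in an intron of the deubiquitinase gene Josd2, had 89, 53, 58 and 39 counts in KO and 44, 35, 68 and 76 counts in WT (log2 fold change 0.27, SE 0.31). Mir6999, in an intron of the diacylglycerol kinase gene Dgkz, had 27, 46, 39 and 29 counts in KO and 55, 53, 28 and 61 counts in WT (-0.30, SE 0.27). The groups overlapped for each of these 3 precursors.

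Mir6338, 300 bases from Smtnl2, had 26, 52, 53 and 50 counts in KO and 71, 60, 49 and 35 counts in WT. Its log2 fold change of -0.10 (SE 0.35) changed sign when KO replicate 1 or WT replicate 1 was left out. Mir3074-1, in an intron of the Fanconi anaemia gene Fancc, had 38, 29, 7 and 29 counts in KO and 40, 38, 47 and 26 counts in WT (-0.41, SE 0.47). The value was -0.09 without KO replicate 3, the library with 7 counts, and -1.17 in limma-voom. It overlaps Mir24-1, which is listed at 0 in every library, on the opposite strand, and it lies opposite to a transcript of 2010111I01Rik, so its reads are uncertain. Mir1291 shares most of its length with the small nucleolar RNA gene Snora34, so its reads could be counted for either, and had 25, 33, 23 and 29 counts in KO and 33, 29, 22 and 26 counts in WT (0.17, SE 0.28). All 3 groups of counts overlapped between genotypes.

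The muscle list held 3 members among its 10 precursors in the table, Mir133a-1, Mir133a-2 and Mir486. Mir133a-1 and Mir133a-2 give the microRNA miR-133a, typical of skeletal and heart muscle. Mir133a-2 had 141, 119, 117 and 128 counts in KO and 132, 119, 96 and 83 counts in WT. WT replicate 4, which also had the lowest muscle marker sum, was the lowest library, and the groups overlapped. Its level averaged 4.13 ± 0.65 CPM in KO and 3.17 ± 0.87 CPM in WT (SD, n = 4 each), a log2 fold change of 0.39 (SE 0.24; adjusted p = 0.432 in edgeR) that was 0.12 without both replicates numbered 4.

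Mir133a-1 had 41, 38, 37 and 41 counts in KO and 32, 26, 75 and 23 counts in WT, where replicate 3 stood above the others. Its log2 fold change was 0.12 (SE 0.44), and the sign turned without WT replicate 2 or WT replicate 4. The pair matched each other at 91.2% identity, so reads could be split between them. Of the rest of the muscle list, Mir206 had 31 counts and Mir1a-1 had 28 counts over all libraries, both under the limit, and 3 precursors were at 0. Mir486 was lower in KO while the muscle marker sum was higher in KO replicates 3 and 4 than in every WT library, and the erythroid sums overlapped. Of the erythroid markers, 11 had a negative and 3 a positive log2 fold change, with a median of -0.46. Of the muscle markers, 12 were positive and 3 negative, with a median of 0.48. The part of both marker sets in the precursor values was not tested. In bulk tissue fewer cells of a type and less RNA per cell cannot be told apart.

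The blood list held 1 member, Mir142b, among its 16 precursors in the table, 13 of which were at 0. Mir451a and Mir451b, both at 0, cover the same bases on opposite strands. Reads over both may have been counted for neither, so a 0 there need not mean absence. Mir142b lies at chr11:87756841-87756955 on the minus strand, opposite to Mir142hg, the long noncoding host of Mir142, a precursor found throughout blood cells. Mir142 itself, nested inside Mir142b on the other strand, was listed at 0. Mir142b had 166, 139, 81 and 36 counts in KO and 86, 133, 84 and 206 counts in WT, a log2 fold change of -0.09 (SE 0.38; adjusted p = 0.931 in edgeR). KO replicate 4 was the lowest of the 8 libraries and KO replicate 1 the highest in CPM, at 1.36 and 5.33 CPM. The same 2 libraries were lowest and highest in the summed myeloid markers, at 1001 and 8333 CPM, and their part in Mir142b was not tested.

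The bone and mesenchyme list held 4 members of its 34 precursors, Mir199a-1, Mir23b, Mir27b and Mir145a, and 19 of the list were at 0. Mir145a, which in smooth muscle cells favours the contractile state, had 13, 15, 17 and 13 counts in KO and 11, 20, 25 and 15 counts in WT (log2 fold change -0.16, SE 0.37). Mir199a-1, on the strand opposite to the dynamin gene Dnm2, had 3, 5, 4 and 2 counts in KO and 8, 10, 3 and 15 counts in WT, which overlapped, and did not pass the filter. Mir23b had 9, 5, 9 and 3 counts in KO and 10, 9, 6 and 5 counts in WT, and Mir27b had 1, 19, 3 and 4 counts in KO and 9, 3, 5 and 5 counts in WT. KO replicate 2 held most of the KO counts of Mir27b, and no member of the bone list separated the genotypes.

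Among all precursor symbols, 25 pairs were nested on opposite strands, and the inner precursor had no count in any of the 25 pairs, while 12 of the outer ones had counts. The outer precursor was a member in 4 pairs (Mir142b, Mir3074-1, Mir1b and Mir486). The strand setting of the counting is not given in the sources used here, so for these 4 members the reads of both strands cannot be told apart. Reads over both precursors of a pair may have been counted for neither, which was not tested. Outside the inner precursor lie 18 and 20 bases of Mir486, and 23 and 28 bases of Mir142b. No member lay on chromosome 1, which carries Kcnj9. Its 60 precursor symbols had at most 31 counts each, and the best covered of the 16 within 15 Mb of Kcnj9, Mir6904, had 0, 8, 4 and 0 counts in KO and 1, 1, 0 and 5 counts in WT.

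Most members lie inside another gene, so each was read against its host. An intron of a gene on the same strand held 33 members with 7410 counts, 4 overlapped part of an exon and 1 lay in an exon, 5 lay opposite to a gene, and 8, with 4560 counts, lay over no gene analysed here. Of the 42 host genes, 40 were tested and 0 passed in edgeR, where 0.0115% of all tested genes passed. At an unadjusted p under 0.05, 3 hosts were higher in KO, where 9.59% of all tested genes were, and 10 were lower, where 8.59% were, with a median log2 fold change of -0.05. DESeq2 called 8 of the 40 hosts, where it called 6.48% of all genes, and limma-voom 5, where it called 4.04%. The hosts with the smallest p were Ptges3l at 0.60 (SE 0.13; adjusted p = 0.0769 in edgeR) and Cdk12, a kinase of elongating RNA polymerase, at -0.51 (edgeR adjusted p = 0.0769).

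In 21 pairs both the precursor and its host were tested. Their log2 fold changes had the same sign in 12 pairs and opposite signs in 9, and the precursor's was larger in size in 14. The median size was 0.30 for the precursors and 0.19 for their hosts, beside 0.22 for all tested genes, and the precursors had far fewer counts than the hosts. Ratios of precursor to host counts were formed in each library with 0.5 added to both counts. They did not overlap between genotypes in 3 of 42 pairs (7.14% of the pairs), and 1 of these, Mir3058 with Nudt4, was named because of it. Over all tested genes, the CPM levels, a different measure, did not overlap in 13.1%. The 42 pairs include Mir703 with Cfap299, whose ratio was not usable.

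**Figure D3:**
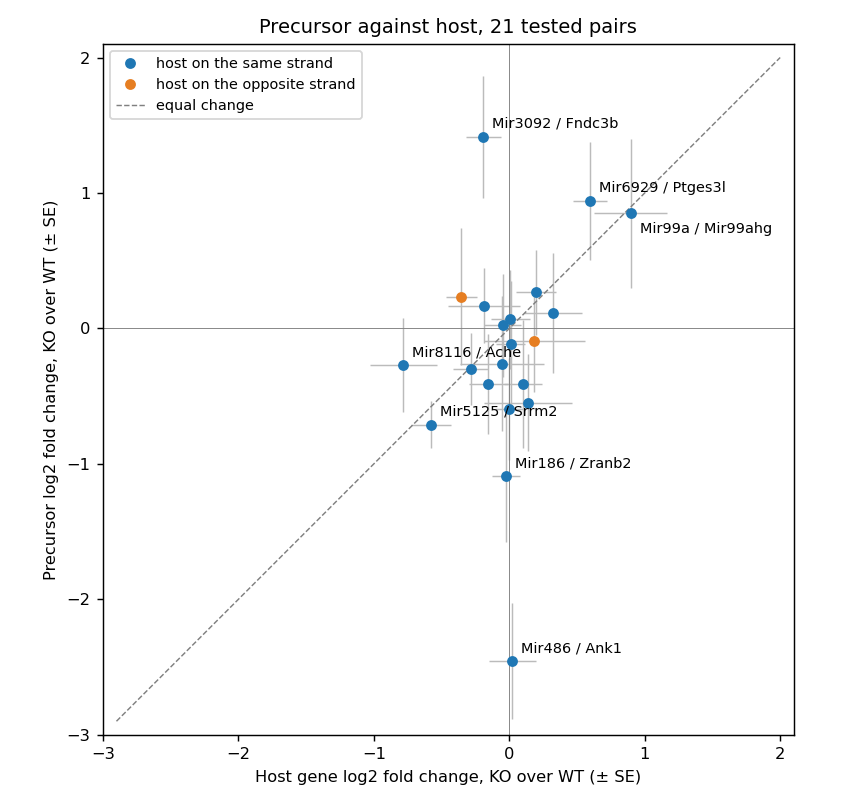
Log2 fold change (KO over WT, with standard errors) of each precursor on the vertical axis against that of its host gene on the horizontal axis for the 21 pairs in which both were tested, with the dashed line where they are equal. Mir5125 with Srrm2 and Mir99a with Mir99ahg lie near the line, while Mir486 at -2.46 and Mir3092 at 1.42 lie far from it beside hosts at 0.02 and -0.19.

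Of the 21 pairs with both genes tested, Mir486 and Ank1 stood furthest apart. Ank1 had 372, 395, 458 and 564 CPM in KO replicates 1 to 4 and 403, 452, 514 and 392 CPM in WT replicates 1 to 4, which overlapped, with a log2 fold change of 0.02 (SE 0.18; adjusted p = 0.964 in edgeR). There were 0.259, 0.670, 0.206 and 0.403 Mir486 counts per 1000 Ank1 counts in KO, against 3.50, 1.49, 1.64 and 2.25 in WT. The highest KO ratio, in replicate 2, was below the lowest WT ratio, also in replicate 2. The mean log2 ratio differed by -2.46 for KO minus WT (two-sided exact permutation p = 0.0286, the value that any pair without overlap has), and by -1.73 with 5 counts added in place of 0.5. Leaving out each library in turn gave -2.75 to -2.22. Mir486 had the smallest p of the tested precursors in the same counts, so the ratio test repeats that contrast and is not separate support.

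Mir3092 also differed in its ratio to its host. Fndc3b, which encodes a fibronectin type III domain protein, had 42.4 ± 3.50 CPM in KO and 48.4 ± 7.63 CPM in WT (SD, n = 4 each; log2 fold change -0.19). There were 20.3, 10.0, 9.08 and 16.7 Mir3092 counts per 1000 Fndc3b counts in KO, against 4.54, 7.23, 3.26 and 2.67 in WT. The groups did not overlap, and the log2 ratio differed by 1.62 (exact permutation p = 0.0286, two-sided, the value that any pair without overlap has), or by 1.24 with 5 counts added. Mir3092 was named for its small p in the same counts, so here too the ratio test is not separate support. The third pair was Mir3058 with Nudt4, a hydrolase of inositol pyrophosphates. Mir3058 had 0, 4, 4 and 3 counts in KO and 10, 8, 5 and 9 counts in WT and did not pass the filter, and its log2 ratio to Nudt4 differed by -1.78, or by -0.79 with 5 counts added in place of 0.5. This pair was picked for its ratios, so no test is given.

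Mir5125 and its host were both lower in KO. Srrm2 had 202, 283, 255 and 285 CPM in KO and 396, 379, 384 and 371 CPM in WT, again with no overlap, and a log2 fold change of -0.58 (SE 0.15; adjusted p = 0.0999 in edgeR). There were 31.6, 26.5, 23.0 and 30.2 Mir5125 counts per 1000 Srrm2 counts in KO, against 25.2, 26.3, 32.1 and 37.9 in WT. These overlapped, with a log2 difference of -0.12 (exact permutation p = 0.543), so the lower count of Mir5125 in KO did not exceed that of Srrm2 beyond the spread between libraries. Mir99a and Mir99ahg, a pair named after its values were seen, each overlapped between genotypes. DESeq2 gave Mir99ahg an adjusted p of 0.0317, and limma-voom gave 0.228. The log2 fold changes were 0.85 for the precursor (edgeR adjusted p = 0.453, and 0.15 on the log2 scale in limma-voom) and 0.90 for the host (edgeR adjusted p = 0.132), and the ratio difference was -0.04 (exact permutation p = 0.914). Mir99a rested on KO replicate 1, with 72 counts there, 23, 19 and 21 in the other KO libraries and 24, 27, 22 and 8 in WT.

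For Mir186 and Zranb2 the ratios overlapped in 1 library. Zranb2 differed by -0.03 on the log2 scale, with 91.9 ± 5.06 CPM in KO and 93.5 ± 5.63 CPM in WT (SD, n = 4 each). The log2 ratio of Mir186 to Zranb2 differed by -1.24 for KO minus WT, with KO replicate 3 inside the WT range (exact permutation p = 0.0571). It was -0.75 with 5 counts added, and leaving out each library in turn gave -1.61 to -0.96. Ache, the host of Mir8116, had a log2 fold change of -0.78 (SE 0.25), which did not pass in edgeR (adjusted p = 0.148), and its groups overlapped, as did those of Mir8116. The ratio was 88.3, 91.5, 63.3 and 56.0 Mir8116 counts per 1000 Ache counts in KO, against 50.2, 46.8, 50.0 and 59.2 in WT, a log2 difference of 0.51 (exact permutation p = 0.0571). KO replicate 4 was below WT replicate 4 in that ratio. Ache itself had an adjusted p of 0.0470 in DESeq2 and of 0.095 in limma-voom.

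**Figure D4:**
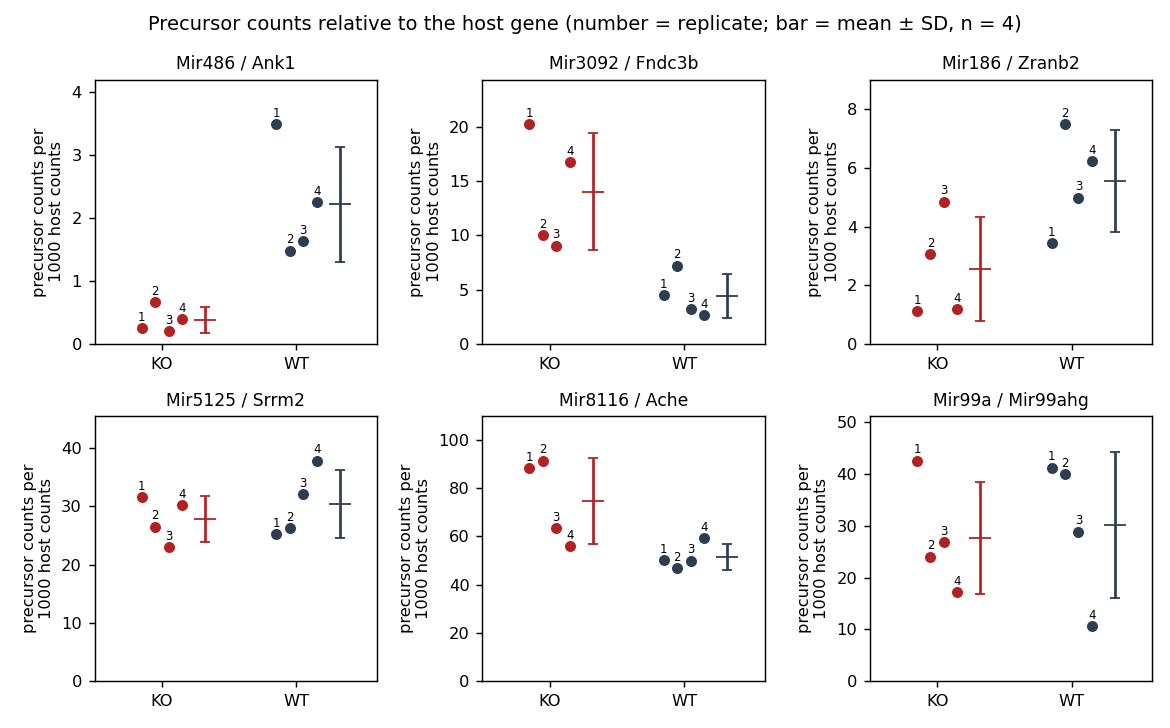
Precursor counts per 1000 counts of the host gene in each of the 4 KO and 4 WT libraries for 6 pairs, numbered by replicate, with the mean and SD of each group. Mir486 per Ank1 lies lower and Mir3092 per Fndc3b higher in KO without overlap, and Mir186, Mir5125, Mir8116 and Mir99a overlap between genotypes.

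None of the genes that make and use microRNAs passed the test in edgeR. Of 30 listed genes 28 were tested, Lin28b and Trim71 being too low, and 0 were called, where 0.0115% of all tested genes were. At an unadjusted p under 0.05, 0 were higher and 11 were lower, where 9.59% and 8.59% of all tested genes were. The log2 fold change was negative for 20 genes and positive for 8, with a median of -0.16, beside 8973 of 17450 tested genes negative and a median of -0.01. With the trend of counts with exon length removed, 15 were negative and 13 positive. The CPM levels of 9 genes did not overlap between genotypes, all lower in KO, where 5.77% of all tested genes behaved so. DESeq2 called 4 of the 28, Ago2, Ddx17, Dgcr8 and Tut7, all lower in KO, where it called 6.48% of all genes, and limma-voom called 1, Ago2, where it called 4.04%. The list was chosen with earlier results of these data known.

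Of the enzymes that cut the hairpin, Drosha averaged 49.1 ± 9.18 CPM in KO and 51.6 ± 7.69 CPM in WT (SD, n = 4 each), a log2 fold change of -0.07 (SE 0.16). Its partner Dgcr8, which binds the double strand, had 22.0, 31.0, 22.2 and 24.3 CPM in KO and 30.7, 34.0, 34.9 and 38.2 CPM in WT. KO replicate 2 lay just inside the WT range, and the log2 fold change was -0.47 (SE 0.13; adjusted p = 0.123 in edgeR). Xpo5, the exporter, was at 13.8 CPM in KO and 20.2 CPM in WT, a log2 fold change of -0.55 (edgeR adjusted p = 0.164). Dicer1 averaged 54.9 ± 7.81 CPM in KO and 61.6 ± 9.57 CPM in WT (SD, n = 4 each; log2 fold change -0.17, SE 0.15), which overlapped.

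Of the Argonaute genes, Ago2, the member that can cleave a target, had 76.8, 106, 85.8 and 103 CPM in KO and 141, 123, 134 and 139 CPM in WT. The groups did not overlap, and the log2 fold change was -0.53 (SE 0.13; adjusted p = 0.0969 in edgeR). Ago3 had 13.3, 18.5, 16.2 and 16.5 CPM in KO and 28.2, 25.2, 20.3 and 19.1 CPM in WT, also without overlap (-0.52, SE 0.16, edgeR adjusted p = 0.130). Ago4 stood on the other side at 0.15, and Ago1 at -0.35. Tut7, which adds uridines to precursor ends, had 28.7, 55.1, 45.7 and 46.6 CPM in KO and 66.9, 62.4, 65.0 and 76.4 CPM in WT (-0.62, SE 0.18, edgeR adjusted p = 0.125). Removing the trend of counts with exon length left Ago2 at -0.34 and Tut7 at -0.44 on the log2 scale, Drosha at 0.007 and Dicer1 at 0.057, and Tnrc6b, a partner of Argonaute, at -0.01, against -0.27 without that step.

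**Figure D5:**
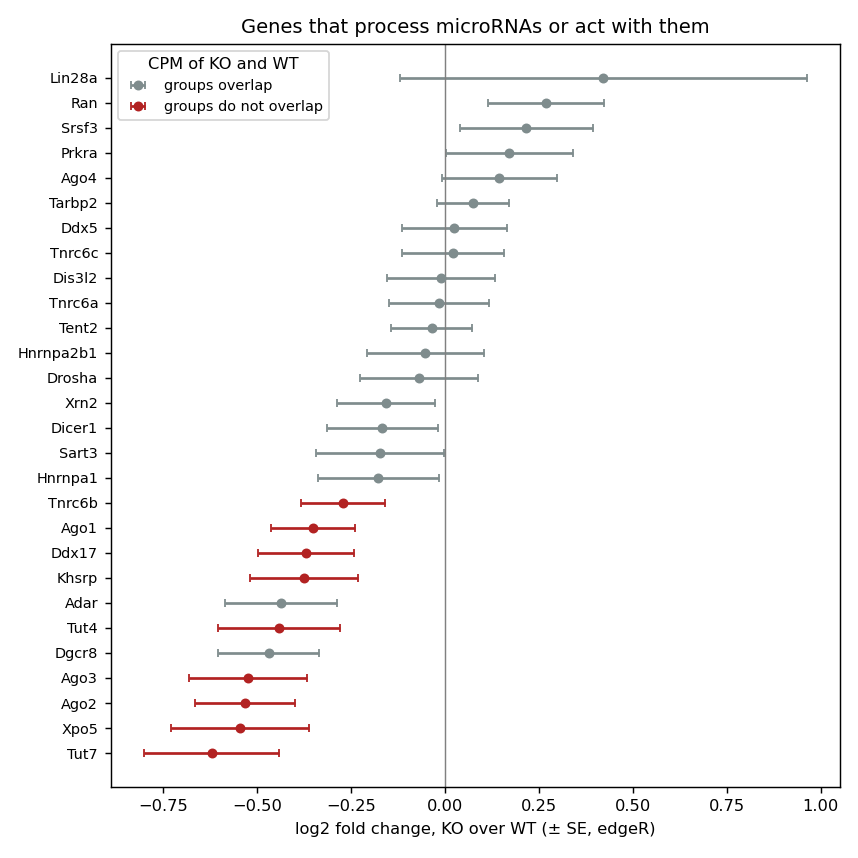
Log2 fold change of KO over WT with its standard error (edgeR, 4 libraries per group) for the 28 tested genes that process microRNAs or act with them, in red where the CPM levels of the 4 KO and 4 WT libraries did not overlap. The 9 red points are all negative, from Tut7 at -0.62 to Tnrc6b at -0.27.

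The genes most like the precursors in length are the other short noncoding RNAs. Of 127 snoRNA, scaRNA and snRNA genes with at least 40 counts, 77 were tested and 0 passed in edgeR. At an unadjusted p under 0.05, 7 were higher in KO, where 9.59% of all tested genes were, and 5 lower, where 8.59% were, and 7 did not overlap between genotypes, where 13.1% of all tested genes did not. Their median log2 fold change was 0.12, beside -0.10 for the precursors, and the difference was not tested.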

How the data were processed

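The file the authors deposited holds raw read counts, 1 row for each Ensembl gene and 1 column for each library. The submitters' processing notes name featureCounts, Subread 1.5.2, STAR 2.5.2b and bcl2fastq 2.17, and the build mm10. Not given in the sources used here are the annotation release, how strand was set and how reads with more than 1 match were counted. Groups and replicate numbers came from the sample titles.

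The whole table was fitted with edgeR 4.0.16 in R 4.3.3 (TMM factors, filterByExpr, robust quasi-likelihood, genotype as the only term), and p values were adjusted over the 17450 genes that passed. Standard errors were derived from the fold change and its F statistic. Of 49315 IDs, 49056 had a symbol in GENCODE M21. The host was the gene over a precursor, same strand first, then exon, then most counts. Ratios to the host were tested in all 42 pairs by exact permutation (two-sided, 70 arrangements of the libraries), with no adjustment over the pairs, and p values are printed for named pairs only. Pairs whose groups do not overlap always have the smallest p. Similar genes were sought with BLAST 2.17.0 (at least 90% identity over 60% of the precursor) among the transcripts of GENCODE M21 only.

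Depth was 30087749 to 36553713 counts per library. At this depth 3 counts, taken as the floor, equal 0.0696 to 0.114 CPM in 1 library, which covers counting error only. The smallest chi-square per degree of freedom between libraries was 39.4, so no library repeated another. The p values weigh the difference between genotypes against the spread between these 8 mice. In edgeR that spread is estimated with information from all tested genes.

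Members named in every library were the 12 with the most counts, the 8 with the smallest p, Mir486, Mir703 and list members with at least 200 counts, which gave 17. Mir99a, Mir3058, the bone list members and the other genes named beyond these were chosen after their values were seen. The members and all lists were chosen with earlier results of these data known. Alternatives were DESeq2 1.42.0, limma-voom (3.58.1) with quality weights, other scalings, other filters, a replicate block, removal of the exon length trend by loess (span 0.3) and omission of libraries. Of the 33 machinery symbols written down, 3 were older names of listed genes.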

Additional observations from a re-analysis of the deposited data

Results flagged for a closer look

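Of 62 groups of 4 libraries examined for a library far from the other 3, 4 had one, and chance flags about 1 in 20 such groups. In WT replicate 4, Mir8116 stood at 7.75 CPM, where the other WT libraries were at 3.28 to 3.81 CPM. Its host gene Ache was likewise high in WT replicate 4, at 130.8 CPM, beside 65.4 to 76.3 CPM in the other WT libraries. Mir703 was at 1.49 CPM in WT replicate 4, beside 1.11 to 1.14 CPM in the others, a gap that is small next to the KO values. Dgkz, the host of Mir6999, was at 112.3 CPM in KO replicate 1, beside 139.8 to 143.7 CPM in the other KO libraries.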

How the results depend on the processing

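The count of precursors called by edgeR was 0, and it was 3 with DESeq2, 4 with limma-voom, 3 with no low-count filter, 3 without KO replicate 4 and WT replicate 4 together, and 0 to 1 with each library left out in turn. Hosts called numbered 0 in edgeR, 8 with DESeq2, 5 with limma-voom and 3 without both replicates numbered 4. Machinery genes called numbered 0 in edgeR, 4 with DESeq2 and 1 with limma-voom. Of the 17 named precursors, 12 kept their sign in every fit. Without both replicates numbered 4 the log2 fold change turned to 0.21 for Mir8116, 0.34 for Mir142b, -0.24 for Mir133a-1 and -0.058 for Mir1291. With the exon length trend removed it turned to -0.036 for Mir133a-1 and -0.015 for Mir1291. With each library left out in turn it ran from -0.62 to 0.11 for Mir8116, -0.41 to 0.17 for Mir142b, -0.33 to 0.091 for Mir6338 and -0.14 to 0.77 for Mir133a-1. The ratio of Mir486 to Ank1 moved to -1.73 with 5 counts added. The cause of these changes was not tested, apart from the added counts, which shrink a ratio built on few counts.

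Same-numbered libraries had correlations of -0.19, -0.17, -0.25 and -0.57 in their deviations from the group means, so replicate numbers gave no sign of pairing. Such correlations cannot show whether mice were littermates or were handled in pairs. With the replicate block, 0 precursors, 0 hosts and 0 machinery genes were called, and Mir486 was at -2.45, Mir6236 at 1.11 and Mir703 at 1.77. Library totals without TMM moved the median of all genes to -0.11 and that of the precursors to -0.18, and removal of the length trend moved the precursors' median to -0.27. Depth limited the 23 members that were not tested, which had at most 74 counts over 8 libraries, and a difference in them may not have been detectable.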
